A study of Mus musculus with 4 samples.

Results

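Broad blocks of histone H3 trimethylated on lysine 9 (H3K9me3) were defined as 100 kb tiles of the autosomes of the mm8 mouse genome, counted from the first base, in which whole-cell extract (WCE) held at least 100 reads and H3K9me3, scaled to the same autosomal total, held at least 1.5 times the WCE count. Of 13692 tiles with enough WCE reads, 629 met this, or 4.59%, and joining adjoining tiles gave 296 blocks that cover 62.9 Mb. H3K9me3 was measured by chromatin immunoprecipitation and sequencing in MDER 10T cells, mouse fibroblasts with an estrogen-inducible MyoD1 as named in the series title. The 4 groups, of 1 library each, were H3K9me3, H3K4me3, H3K27me3 and WCE, which was sequenced without immunoprecipitation and is the control. All libraries came from cells in the same phenol red-free medium with 10% FCS, and the labels name no estrogen treatment, clone or passage.

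H3K9me3 marks heterochromatin. It is written by enzymes such as SETDB1 and the SUV39H pair and bound by HP1 proteins, which compact chromatin. Its best known sites in mouse cells are the satellite repeats beside the centromeres and transposable elements, but it also spreads over gene clusters and gene-poor stretches as wide domains. H3K4me3 sits at active and poised promoters, and H3K27me3 is the mark of Polycomb repression.

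The ratio of H3K9me3 to WCE chose the tiles, so its values are a description and were not tested. A ratio divides the reads of a mark by those of WCE once both libraries are brought to the same autosomal total. Its 95% exact interval covers counting error only, and PCR copies cannot be told from separate molecules here. A single library per group leaves no replicate spread, so no difference between blocks and other tiles could be tested over samples. Autosomal reads numbered 2101444 for H3K9me3, 3086567 for H3K4me3, 2933567 for H3K27me3 and 2977697 for WCE, each position and strand counted once. Reads that align to more than 2 places were dropped by the authors' alignment, so repeats of many near-identical copies are not covered. No mm8 annotation was used, so blocks are named by position and not by gene.

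Member tiles held a median of 170 H3K9me3 reads, against 111 in the other 13063 tiles, while WCE held 128, against 160. Their ratio had a median of 1.76 and ran to 3.49, where all tiles examined had a median of 0.986. A ratio of 2 or more was reached by 179 tiles and one of 2.5 or more by 44. In 228 of the 629 members the lower interval limit was itself at or above 1.5. The threshold falls within a continuous distribution, with 159 tiles between 1.5 and 1.6 and 273 between 1.4 and 1.5. Just inside it, the tile at 162 H3K9me3 and 153 WCE reads on chromosome 7 from 136900001 to 137000000 had a ratio of 1.5003 (1.20 to 1.88). The tiles on chromosome 17 from 9700001 (144 and 136 reads) and on chromosome 12 from 27000001 (126 and 119) had the same ratio. Just outside it, the tile on chromosome 1 from 35900001 to 36000000 held 183 H3K9me3 and 173 WCE reads, a ratio of 1.4989 (1.21 to 1.86). The other tiles nearest below were on chromosome 17 from 47700001 (165 and 156 reads, ratio 1.4987) and from 49800001 (129 and 122 reads, 1.4983).

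Most blocks were a single tile, and the name "broad" applies to a minority of them. Single tiles made up 191 of the 296 blocks and 30.4% of the member tiles. Another 77 blocks had 2 to 4 tiles, and 28 had 5 or more, which together hold 225 tiles or 22.5 Mb. Longer blocks had higher ratios, with a pooled value of 2.05 (2.02 to 2.08) in the 28 blocks of 500 kb or more, 1.87 (1.84 to 1.90) in those of 200 to 400 kb and 1.66 (1.64 to 1.69) in single tiles. The 3 classes also differed when the choice and the measurement were made on different reads. Tiles were chosen on forward-strand reads alone, with at least 50 WCE reads, and read out on reverse-strand reads of the same libraries. The strands of a library are not replicates, and the length of a run was set by the same contrast. The reverse-strand ratio was again at least 1.5 in 94.1% of the 185 chosen tiles that lay in runs of 5 or more, in 75.9% of 216 in runs of 2 to 4 and in 33.6% of 307 that stood alone, against 6.27% of all 13722 tiles examined in this way.

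**Figure D1:**
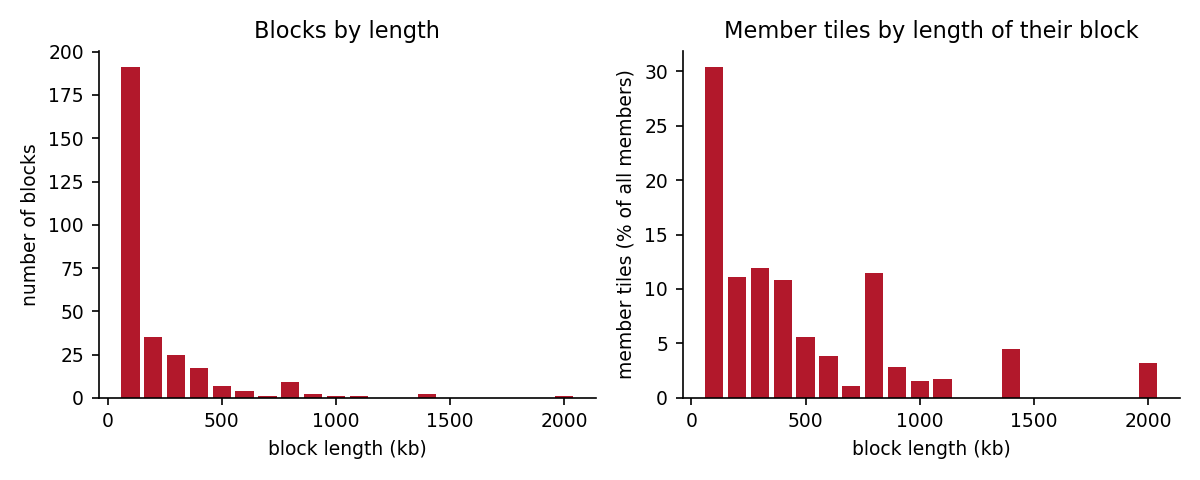
Number of H3K9me3 blocks by length in kb (left) and the share of all 629 member tiles that lies in blocks of each length (right). Single 100 kb tiles are 191 of the 296 blocks but hold 30.4% of the member tiles, and the longest block has 2000 kb.

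The longest block covered 2.0 Mb of chromosome 15, from 86400001 to 88400000. Over its 20 tiles it held 4110 H3K9me3, 1921 H3K4me3, 2364 H3K27me3 and 2821 WCE reads, and its H3K9me3 ratio was 2.06 (1.97 to 2.17). The ratio of its tiles ran from 1.65 to 2.56, and the neighbours that end it had ratios of 1.4 and 1.16. The H3K4me3 ratio was 0.657 (0.620 to 0.696) and the H3K27me3 ratio 0.851 (0.805 to 0.899), and no 4 kb window in it was called for any of the 3 marks. A window is called where a one-sided exact binomial test against WCE gives a Benjamini-Hochberg adjusted p under 0.05 over all windows with a read and the ratio is at least 2.

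A pair of blocks of 1.4 Mb followed, both close to the distal end of their chromosome. The block on chromosome 4 from 151400001 to 152800000 held 2779 H3K9me3 and 1618 WCE reads (ratio 2.43, 2.29 to 2.59) and ended 2.23 Mb before the highest read position of the chromosome. The block on chromosome 2 from 178400001 to 179800000 held 3374 and 2056 reads (2.33, 2.20 to 2.46) and ended 2.13 Mb before it. On chromosome 4 a further block of 800 kb, from 152900001 to 153700000, began after a gap of a single tile with a ratio of 1.42, and had a ratio of 2.39 (2.22 to 2.58). The gap tile had an H3K4me3 ratio of 2.74. This second block had 2 called H3K4me3 windows and an H3K4me3 ratio of 0.981, the highest among the 28 long blocks. The other blocks among the 8 longest were on chr12:106500001-107600000 (1100 kb, ratio 2.17), chr5:112700001-113700000 (1000 kb, 2.64), chr17:47900001-48800000 (900 kb, 1.96) and chr9:97100001-98000000 (900 kb, 1.67). All 4 had no called H3K4me3 or H3K27me3 window.

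**Figure D2:**
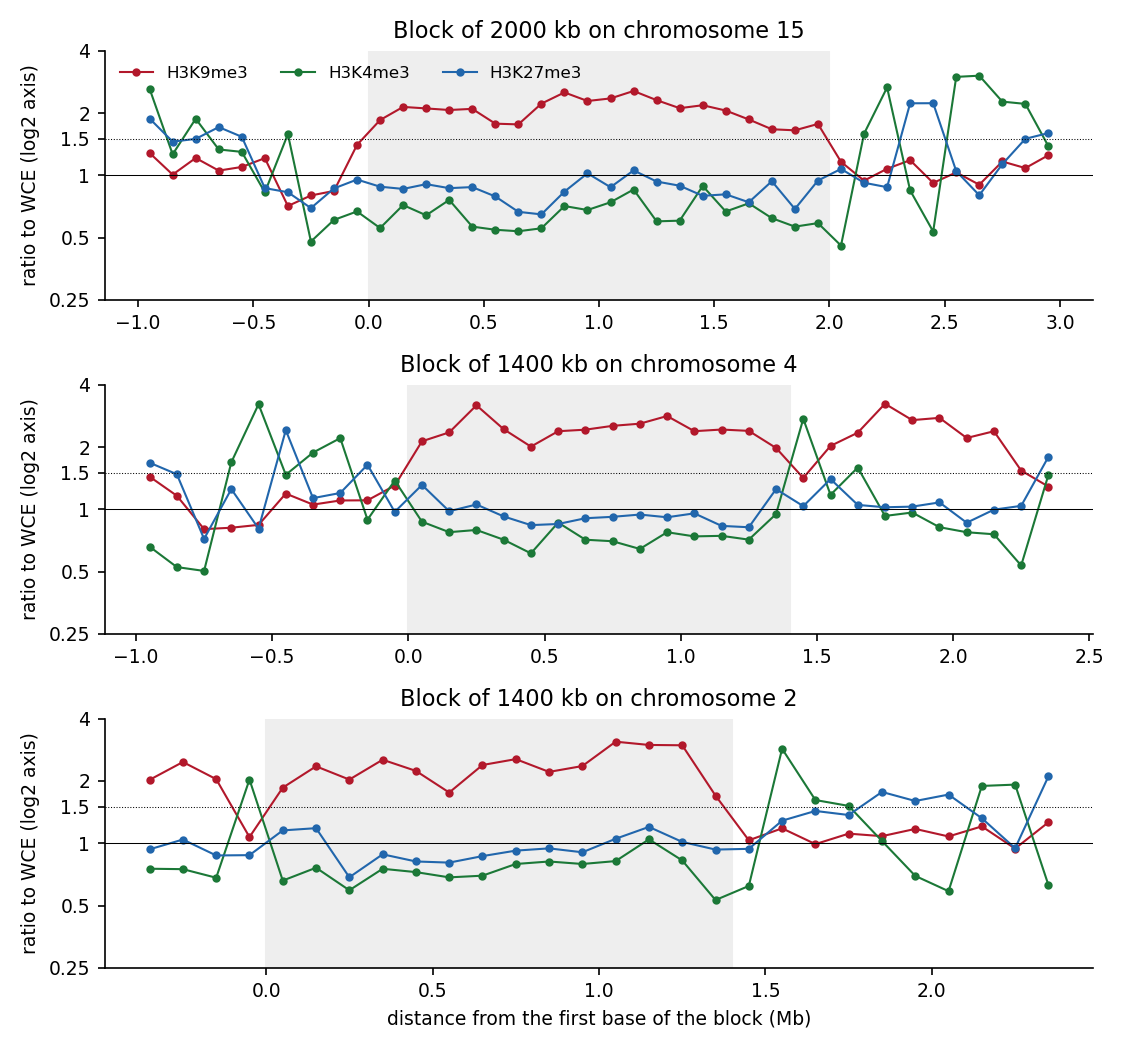
Ratio to WCE per 100 kb tile (log2 axis) of H3K9me3, H3K4me3 and H3K27me3 across the 3 longest blocks (shaded) and 1 Mb to either side, against the distance from the first base of the block. Tiles with under 20 WCE reads are left out, and the dotted line is the ratio of 1.5. H3K9me3 lies above it in each shaded tile, and no shaded tile has an H3K4me3 ratio above 1.5. Other blocks to either side are not shaded. On chromosome 4, a tile of the block from 152900001 has ratios of 2.35 for H3K9me3 and 1.59 for H3K4me3.

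By ratio, the strongest block of at least 2 tiles was short. On chromosome 2 from 172400001 to 172600000, 698 H3K9me3 reads faced 320 H3K4me3, 355 H3K27me3 and 299 WCE reads, a ratio of 3.31 (2.88 to 3.8). Its first tile had the highest ratio of all tiles, 3.49 (2.87 to 4.28), and the tile before it, left out for low WCE, had 2.89. The block on chromosome 4 from 139300001 to 139700000 followed with 928 and 483 reads (2.72, 2.44 to 3.05), then the 1000 kb block of chromosome 5 already named. Chromosome 15 from 84100001 to 84400000 had a ratio of 2.51 (2.24 to 2.80), chromosome 4 from 141300001 to 141700000 one of 2.49 (2.23 to 2.78), and chromosome 5 from 128900001 to 129100000 one of 2.43 (2.06 to 2.87). The intervals of these last blocks overlap, so their order is not resolved at this depth. Chromosome 4 supplied 4 of the 8 blocks with the highest ratios.

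Inside long blocks H3K9me3 was raised in most 10 kb bins. These bins hold the reads that chose the tiles, so the rule itself favours their contrast with tiles outside. In 10 kb bins with at least 5 WCE reads, the median ratio was 2.02 in blocks of 500 kb or more and 0.945 in tiles outside blocks, and 95.1% of bins, against 46.1%, were at 1 or above. The central 80% of bins ran from 1.19 to 3.42 in long blocks, with a median of 2.02, and from 0.945 to 2.83 in single tiles, with a median of 1.61. Called H3K9me3 windows occurred in 9 of 28 long blocks and in 17 of 191 single tiles, which are shorter. Per Mb they numbered 0.533 in long blocks and 1.31 in single tiles. They lay in 4.89% of the tiles of long blocks and in 8.90% of single tiles. Without the reads in called windows, the H3K9me3 ratio was 2.04 in long blocks and 1.62 in single tiles. Of all windows tested 0.0195% were called for H3K9me3. Called H3K9me3 windows lay in 5.56% of member tiles where 0.628% of all tiles examined had one, which the rule itself favours.

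Some single tiles held a focal H3K9me3 site beside an H3K4me3 peak, and those given here were chosen after their values were seen. On chromosome 15 from 76000001 to 76100000 a 12 kb H3K9me3 stretch (76000001 to 76012000, 216 H3K9me3 and 53 WCE reads, ratio 5.77, 4.26 to 7.95) lay 4 kb from a 20 kb H3K4me3 peak (76016001 to 76036000, 1195 H3K4me3 and 173 WCE reads, 6.66, 5.68 to 7.86), in which the H3K9me3 ratio was 0.909. On chromosome 12 from 113200001 to 113300000 the called H3K9me3 window at 113220001 (51 and 5 reads, 14.5, 5.81 to 46.4) preceded a 12 kb H3K4me3 peak at 113240001 (425 and 88 reads, 4.66, 3.70 to 5.93). In that H3K9me3 window H3K4me3 (3.86, 1.41 to 13.2) and H3K27me3 (3.25, 1.14 to 11.3) also exceeded WCE. Over all called H3K9me3 stretches in blocks the pooled ratios were 6.05 for H3K9me3, 1.90 for H3K4me3 and 1.69 for H3K27me3. The tile on chromosome 5 from 143500001 to 143600000 held a 16 kb H3K9me3 stretch at 143508001 (157 and 33 reads, 6.74).

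Over the 56 edges of the 28 long blocks, the H3K9me3 ratio was 2.11 (2.05 to 2.17) at 100 to 200 kb inside, 1.95 (1.87 to 2.03) at 50 to 100 kb inside and 1.65 (1.58 to 1.72) in the first 50 kb inside. Outside, it was 1.38 (1.32 to 1.44) in the first 50 kb and 1.28 (1.24 to 1.32) at 200 to 300 kb. These outer values include other blocks and tiles under the WCE minimum, which border 11 of the 56 edges. At the 33 edges followed by 3 examined tiles outside blocks, a choice made after seeing the data, the ratio was 1.31 (1.24 to 1.39) in the first 50 kb outside, 1.13 (1.07 to 1.19) at 50 to 100 kb and 1.07 (1.03 to 1.11) at 200 to 300 kb. Inside the same 33 edges it was 1.55 (1.46 to 1.63) in the first 50 kb and 2.08 (2.0 to 2.16) at 100 to 200 kb. The edges are set on the tile grid, which smears any sharper border over up to 100 kb. H3K4me3 changed over the same distance in the other direction. Its ratio was 0.669 (0.637 to 0.702) in the first 50 kb inside, against 0.946 (0.906 to 0.987) in the first 50 kb and 1.14 (1.10 to 1.19) at 50 to 100 kb outside. H3K27me3 moved less, with 0.990 in the first 50 kb inside and 0.903 (0.873 to 0.933) at 100 to 200 kb inside, against 1.12 (1.07 to 1.16) in the first 50 kb outside.

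**Figure D3:**
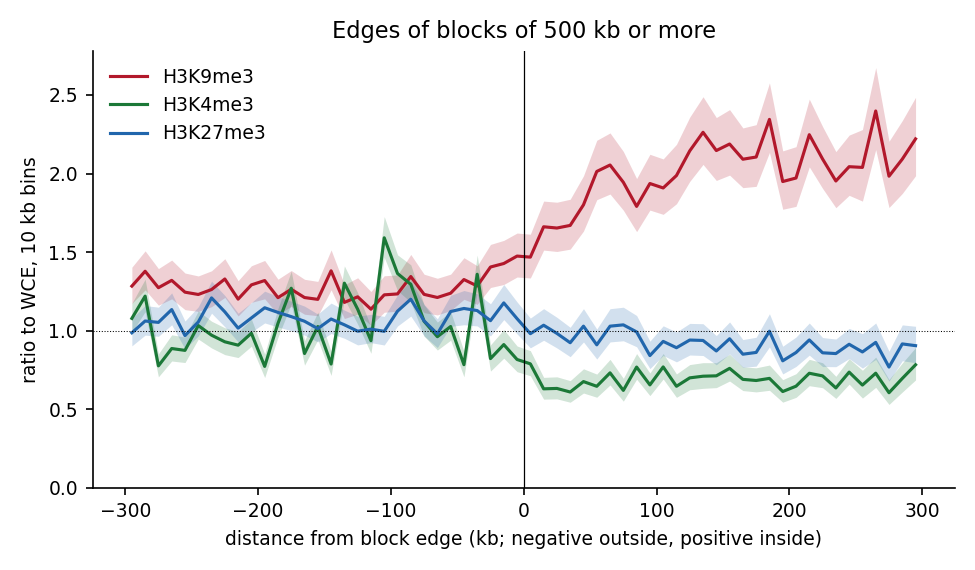
Ratio to WCE in 10 kb bins against the distance from the edge of the 28 blocks of 500 kb or more, both edges folded together, with 95% exact intervals as bands (counting error only). Beyond 250 kb inside, 42 of the 56 edges remain. H3K9me3 is 2.11 at 100 to 200 kb inside and 1.28 at 200 to 300 kb outside, while H3K4me3 is 0.669 in the first 50 kb inside and 0.946 in the first 50 kb outside.

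At 430 of the 592 edges the block ended because the next tile had a ratio under 1.5, with a median of 1.20. Of these neighbours, 56 were below 1. At the other 162 edges the next tile had fewer than 100 WCE reads, and in 112 of those the ratio was 1.5 or more, so the WCE minimum and not H3K9me3 set the border. Where a long block met an examined neighbour, 45 edges in all, the edge tile stood a median of 1.44 times above the neighbour (range 1.10 to 2.01). The rule sets the direction of these steps, since it puts the edge tile at 1.5 or more and the neighbour under 1.5. The steepest of these 45 steps were at the lower edge of the block on chromosome 17 from 85100001 to 85600000 (ratio 1.69 in the edge tile, against 0.840 in the neighbour) and at the upper edge of the block on chromosome 16 from 89600001 to 90100000 (1.74, against 0.874).

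Many blocks lay near one another. Of 277 gaps between neighbouring blocks on a chromosome, 76 were 300 kb or shorter, and 32 of these held a tile under the WCE minimum. Linking blocks across such gaps put 123 blocks and 46.3% of the member tiles into 47 clusters of 2 or more blocks. The widest spanned 3.2 Mb of chromosome 12, from 105000001 to 108200000, with 7 blocks, an H3K9me3 ratio of 1.68 (1.62 to 1.74) over the whole span and 9 H3K4me3 windows between or in the blocks. The next spanned 3.0 Mb of chromosome 2, from 170200001 to 173200000, with 7 blocks and a ratio of 1.83 (1.76 to 1.91). The third was the pair of blocks on chromosome 4 from 151400001 to 153700000, which held 4828 H3K9me3 and 2912 WCE reads (ratio 2.35, 2.24 to 2.46). At the other extreme, 47 gaps were 10 Mb or longer.

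Members lay towards the distal ends of the chromosomes. Mouse autosomes have their centromere at the low-coordinate end, and each chromosome was divided into 5 equal parts from its first base to its highest read position. The last of the 5 parts held 355 of the 629 member tiles, or 56.4% (52.5 to 60.4%), against 25.3% of all tiles examined, and 18 of the 28 long blocks. Within the last part 10.2% of examined tiles were members, where the first part had 1.44%. Neighbouring tiles are not independent, so these intervals are too narrow. The median WCE count of examined tiles was 165 in the last part and 152 in the first, and H3K4me3 windows numbered 9.82 and 9.90 per Mb. In the last part the share of examined tiles that were members exceeded that in the rest of the chromosome on 15 of 19 autosomes. It was 20.7% against 0.640% on chromosome 2, 19.1% against 1.49% on chromosome 4, 19.5% against 3.27% on chromosome 12 and 17.5% against 0.920% on chromosome 18. Chromosomes 13, 14, 17 and 19 went the other way. By distance to the end, 13.6% of tiles at 5 to 10 Mb were members, 10.3% of tiles in the last 5 Mb and 2.05% of tiles beyond 50 Mb. The share of tiles that were members ran from 0.939% on chromosome 3 to 8.01% on chromosome 5.

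**Figure D4:**
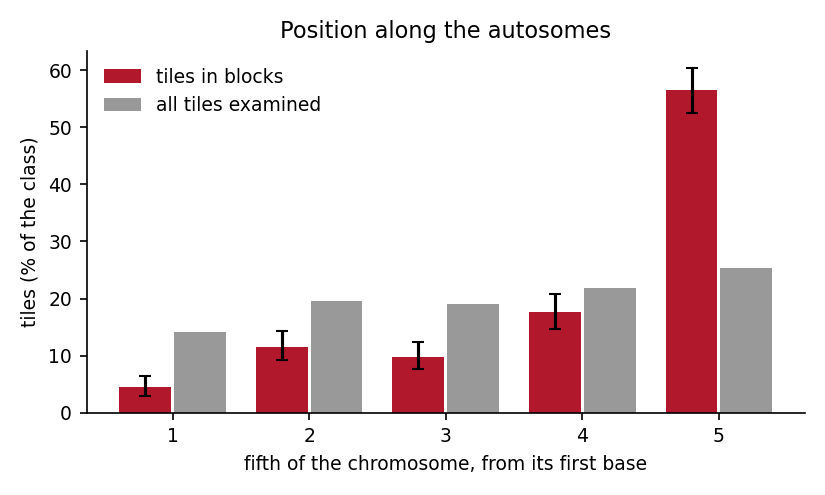
Share of the 629 tiles in blocks (red, with 95% exact intervals for counting error) and of all 13692 tiles examined (grey) in each of 5 equal parts of the chromosome, from the first base to the highest read position. The last part holds 56.4% of the tiles in blocks and 25.3% of all tiles examined.

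H3K4me3 was low in the blocks. Member tiles held a median of 89 H3K4me3 reads, against 148 in tiles outside blocks, and 596 of 629 lay below the mean of all tiles examined. WCE was also lower in blocks, at 0.801 times the mean of tiles examined, against 1.01 outside, and H3K4me3 was at 0.538 times its mean, against 1.02. Relative to WCE the pooled H3K4me3 ratio was 0.766 (0.759 to 0.774) in blocks and 1.15 (1.152 to 1.156) outside. The ratio to WCE shares its control with the rule, which prefers tiles with few WCE reads, so tiles with like WCE counts were also compared. In the lowest of 4 WCE groups, with 290 members, mean H3K4me3 reads per tile were 77.9 in blocks and 86.1 outside, with ratios of 0.673 and 0.742. In tiles with 200 or more WCE reads they were 316 and 380, with ratios of 1.24 and 1.46. H3K4me3 reads per tile were lower in blocks on 19 of 19 autosomes, and the ratio on 18, chromosome 10 being the exception at 1.12 against 1.10. At a ratio of 1.5 or more stood 18 members (2.86%), where 21.7% of all tiles examined did. At the inverse of 1.5 or less stood 324 (51.5%), where 39.1% of all did.

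Called H3K4me3 windows were fewer per Mb in blocks, and without their reads the H3K4me3 ratio was no longer lower in blocks. Called H3K4me3 windows numbered 85 in blocks, 1.35 per Mb, against 9.57 per Mb outside, with 2.33% of all windows tested called, and 7.15% of member tiles held one, where 45.4% of all tiles examined did. With the reads in called H3K4me3 windows left out, the H3K4me3 ratio was 0.687 (0.680 to 0.694) in blocks and 0.668 (0.667 to 0.669) outside. In the 584 member tiles without any H3K4me3 window, H3K4me3 was at 0.461 times its mean over tiles examined. In the 6891 tiles outside blocks without one it was at 0.483. WCE was at 0.782 times its mean in the former and 0.905 in the latter, and the H3K4me3 ratio was 0.672 and 0.609. The windows were called on these same H3K4me3 and WCE reads. Leaving them out removes high H3K4me3 values by choice, which favours like levels in the rest. The count of windows per Mb was also lower in blocks in each of 4 groups of tiles with like WCE counts. In the group with the fewest WCE reads it was 0.483, against 3.46 outside, and in tiles with 200 or more it was 10.3, against 17.9. Only 34 members had 200 or more WCE reads.

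**Figure D5:**
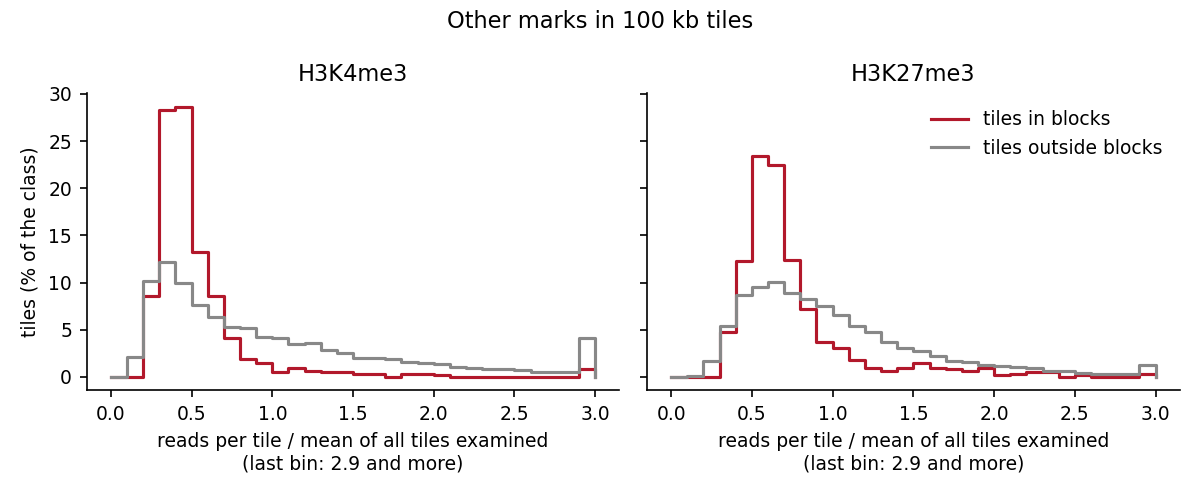
Distribution of H3K4me3 (left) and H3K27me3 (right) reads per 100 kb tile, divided by the mean of all tiles examined, for the 629 tiles in blocks (red) and the 13063 outside (grey), in percent of each class. The median in blocks is 0.440 for H3K4me3 and 0.639 for H3K27me3, against 0.732 and 0.864 outside.

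Long blocks were nearly empty of H3K4me3 peaks. The 28 blocks of 500 kb or more held 6 peaks in 22.5 Mb, 0.267 per Mb, and 24 of them held none. Of those 6, 5 lay in the first or last tile of their block, 0.893 per Mb of such tiles, and 1 in the interior, 0.0592 per Mb. These densities rest on few peaks, and a tile at the edge can reach past a border, since edges follow the tile grid. Single tiles held 54 of the 65 H3K4me3 peaks that lie in blocks, at 2.83 per Mb, and 156 of 191 single tiles had none. Outside blocks there were 7.54 peaks per Mb. The peaks inside had a median of 95 H3K4me3 reads and a mean length of 5.29 kb, against 110 reads and 5.08 kb outside.

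The strongest peak inside a block, by its log2 ratio with 1 read added, lay on chromosome 5 from 34252001 to 34256000, in the single tile from 34200001 to 34300000. It held 176 H3K4me3, 15 H3K9me3, 12 H3K27me3 and 4 WCE reads, an H3K4me3 ratio of 42.4 (16.3 to 158). The next were on chromosome 7 at 29828001 (129 H3K4me3 and 9 WCE reads, 13.8, 7.06 to 30.9) and on chromosome 12 at 17292001 (93 and 7 reads, 12.8, 5.98 to 32.8). The peak on chromosome 11 at 68200001 held 128 H3K4me3, 61 H3K9me3 and 10 WCE reads, so both its H3K4me3 ratio of 12.3 (6.5 to 26.4) and its H3K9me3 ratio of 8.64 (4.39 to 18.9) were high in the same 4 kb. The next, on chromosome 10 at 79196001, held 180 H3K4me3 and 15 WCE reads (11.6, 6.83 to 21.1). All 5 lay in single tiles.

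Around the 65 peaks, within their blocks, the H3K9me3 ratio was lower at the peak than beside it. It was 1.45 (1.36 to 1.55) in the 10 kb bin that holds the peak's centre and 1.69 (1.65 to 1.74) 10 to 50 kb away. These bins hold reads that chose the tiles, so the rule itself may favour this contrast. Around peaks outside blocks the H3K9me3 ratio was 0.927 (0.921 to 0.932) at the peak and 0.992 (0.990 to 0.995) beside it. There, the bins beside the peak were not limited to tiles outside blocks. H3K9me3 reads themselves were not depleted at the peaks, with 1.23 times as many in the central bin as in the bins beside it in blocks and 1.27 times as many outside. WCE reads were 1.44 times as many in the central bin in blocks and 1.37 times outside, and their part in the lower ratio was not tested.

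H3K27me3 reads were fewer in blocks, but hardly so at like WCE counts. Member tiles held a median of 116 H3K27me3 reads, against 157 outside, and 541 of 629 lay below the mean of tiles examined. In the 4 WCE groups, lowest first, mean reads per tile were 100.7 in blocks against 102.1 outside, 132.8 against 139.7, 184.8 against 188.8 and 291.2 against 279.9. Reads per tile were lower in blocks on 18 of 19 autosomes, with chromosome 1 the exception (156.0 against 155.6), and the ratio to WCE on 14 of 19. Relative to WCE the difference was small, with pooled ratios of 1.01 (1.001 to 1.020) in blocks and 1.08 (1.078 to 1.082) outside, and its direction depended on the settings used. It was 1.23 in blocks against 1.06 outside with 50 kb tiles. By block length, the ratio was 0.910 (0.896 to 0.925) in blocks of 500 kb or more, 0.964 (0.948 to 0.980) in those of 200 to 400 kb and 1.17 (1.15 to 1.19) in single tiles. At 1.5 or more stood 37 members (5.88%), where 14.8% of all tiles examined did, and at the inverse of 1.5 or less stood 30 (4.77%), where 15.8% of all did.

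Called H3K27me3 windows numbered 62 in blocks, 0.986 per Mb, against 2.68 outside, and 54 of the 62 lay in single tiles. Of all windows tested 0.624% were called for H3K27me3. They were present in 4.61% of member tiles, where 13.4% of all tiles examined had one. Single tiles were at the level of all tiles, with 13.6% holding a window and 2.83 windows per Mb. Blocks of 2 or more tiles had 0.183 per Mb. Of the 28 long blocks 1 held any. That block, on chromosome 17 from 85100001 to 85600000, had a 16 kb H3K27me3 stretch from 85520001 to 85536000 with 141 H3K27me3, 37 H3K9me3, 21 H3K4me3 and 25 WCE reads (H3K27me3 ratio 5.72, 3.72 to 9.15). The longest H3K27me3 stretches in a block were a pair of 24 kb in the single tile on chromosome 19 from 45200001 to 45300000. The one from 45276001 to 45300000 held 430 H3K27me3 and 66 WCE reads (6.61, 5.09 to 8.71) and 101 H3K9me3 reads (ratio 2.17, 1.57 to 3.0). The other, from 45192001 to 45216000, crosses the border of the tile and held 288 H3K27me3 and 67 WCE reads (4.36).

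H3K27me3 was compared with H3K4me3 directly, since neither library enters the rule. A two-sided exact binomial test per tile compared these 2 libraries, with Benjamini-Hochberg adjustment over 13692 tiles and a called ratio of at least 1.5. H3K27me3 exceeded H3K4me3 in 210 member tiles (33.4%), close to the 35.3% of all tiles examined. H3K4me3 exceeded H3K27me3 in 15 (2.38%), where 24.6% of all did. After scaling by the median tile ratio the shares were 14.8% of members and 25.7% of all tiles with H3K27me3 above, and 4.63% and 31.2% with H3K4me3 above. The pooled ratio of H3K27me3 to H3K4me3 was 1.32 (1.31 to 1.33) in blocks and 0.935 (0.934 to 0.937) outside. The lowest adjusted p among members belonged to a tile with more H3K4me3, that on chromosome 15 from 76000001 (431 H3K27me3 and 1908 H3K4me3 reads, ratio 0.238, adjusted p = 1.8e-201 by the exact binomial test). Of the 15 such tiles, 1 lay in a long block, on chromosome 4 from 153000001 (180 and 287 reads, 0.660, adjusted p = 2.5e-05 by the exact binomial test). The lowest adjusted p in the other direction belonged to the single tile on chromosome 19 from 45200001, with 813 H3K27me3 and 214 H3K4me3 reads (4.0, adjusted p = 2.6e-87 by the exact binomial test).

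Among blocks of at least 2 tiles a few stood apart in the other marks. The highest density of both lay on chromosome 2 from 131100001 to 131300000, with 449 H3K9me3, 487 H3K4me3, 654 H3K27me3 and 422 WCE reads. It was at 1.20 times the mean of tiles examined for H3K4me3 and 1.80 times for H3K27me3, and its H3K9me3 ratio of 1.51 (1.32 to 1.73) was the lowest of these 105 blocks. It was the only 1 of the 105 above the mean for H3K4me3. On chromosome 15 a pair of 300 kb blocks, from 73700001 to 74000000 and from 74100001 to 74400000, had H3K27me3 at 1.56 and 1.57 times the mean, with H3K27me3 ratios of 1.65 (1.47 to 1.84) and 1.49 (1.34 to 1.65). The block on chromosome 8 from 120400001 to 120600000 was at 1.43 times and that on chromosome 2 from 173000001 to 173200000 at 1.35 times. The lowest H3K27me3 densities, between 0.411 and 0.417 times the mean, were at chr2:171100001-171400000, chr13:43900001-44100000 and chr14:57300001-57600000. For H3K4me3 the strongest after the first were on chromosome 2 from 172400001 (0.791), chromosome 15 from 74100001 (0.783), chromosome 2 from 173000001 (0.744) and chromosome 4 from 152900001 (0.689). The lowest H3K4me3 densities were at chr2:20400001-20600000 (0.267), chr1:72800001-73000000 (0.297) and chr5:125900001-126100000 (0.304).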

How the data were processed

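The deposited files of the 4 libraries list signed mapped read positions, a unit with no score or count per region, with reads of 1 and of 2 reported positions apart. Per the file headers the authors aligned reads to mm8 with Bowtie (options e 70, k 2, m 2, n 2, l 36), and repeated positions were left in the lists. Reads with 1 position (2335857 to 3339861 per library) were collapsed to 1 per position and strand (5.93 to 8.38% of autosomal reads were repeats), moved 60 bp along their strand and counted in tiles and 4 kb windows. Scaling used autosomal totals. Windows were called at an adjusted p under 0.05 and a ratio of at least 2. Positions are 1-based. The members, lists and tests were chosen with earlier results of these data known. Named blocks are the 8 longest, the 8 with the highest H3K9me3 ratio and the 5 highest and 3 lowest in each other mark among blocks of at least 2 tiles, with the 5 strongest H3K4me3 peaks of at least 20 reads, the longest H3K27me3 stretch, the 3 longest clusters and the 3 tiles on either side of the threshold. Other regions were chosen after their values were seen. On simulated data for 13692 tiles, the direct test recovered 58% of tiles changed 1.5-fold, the fold of its own threshold, and 100% of those changed 2-fold. All other simulated tiles were unchanged, with counting error only. The real data differ, as 10117 tiles had an adjusted p under 0.05 in the direct exact binomial test. Alternatives changed read handling, tiles, thresholds and scaling. Intervals are Clopper-Pearson. Scripts ran in Python (3.11.15), with scipy (1.17.1) for the tests, numpy (2.4.6) for the counts and matplotlib (3.10.9) for plots.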

Additional observations from a re-analysis of the deposited data

Results flagged for a closer look

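Reads with 2 reported positions entered neither the rule nor the counts of the blocks. In blocks their ratio of H3K9me3 to WCE, scaled to the autosomal totals of such reads, was 1.65 (1.57 to 1.74), against 1.06 (1.05 to 1.07) in tiles outside, and 1.93 (1.76 to 2.12) in blocks of 500 kb or more. It was noted because it is a ratio above that of WCE in reads used elsewhere only in an alternative setting. The same quantity was 1.11 in blocks, against 1.19 outside, for H3K4me3 and 1.14 in both for H3K27me3. The files list both places of such a read, so a value here shares reads with other regions, and the reads come from the same libraries that chose the blocks.

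The X chromosome was outside the rule. Of its 62 tiles with at least 100 WCE reads, 1 reached a ratio of 1.5, where 4.59% of the autosomal tiles examined did. The count is thus no excess over the autosomes, and the tile was noted only because it lay outside the rule. That tile, from 165300001 to 165400000, held 178 H3K9me3, 258 H3K4me3, 145 H3K27me3 and 146 WCE reads, a ratio of 1.73 (1.38 to 2.17). The X chromosome has 1656 tiles in all, so most were not examined for lack of WCE reads.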

How the results depend on the processing

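No paired analysis was possible because each group holds 1 library, and no library could be left out. Against 629 tiles and 296 blocks as reported, 50 kb tiles gave 1602 and 941, 200 kb tiles 271 and 131, a minimum of 200 WCE reads 34 and 32, a lower ratio threshold, midway between 1 and 1.5, gave 1823 and 1094 and a ratio of 2 gave 179 and 76. A minimum of 50 WCE reads gave 969 tiles. The H3K9me3 ratio of 1.87 became 1.83 (50 kb), 1.89 (200 kb), 1.68 (200 WCE reads), 1.5 (lower threshold), 2.36 (ratio 2) and 1.67 (choice by strand).

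The H3K4me3 ratio of 0.766 in blocks became 0.746 with repeats kept, 0.791 with reads of 2 positions, 0.748 with tiles offset by 50 kb, 0.864 (50 kb), 0.711 (200 kb), 0.748 (50 WCE reads), 0.920 (lower threshold), 0.810 (by strand) and 0.715 without H3K9me3 windows. It passed 1 at 200 WCE reads, with 1.24 in blocks against 1.46 outside, and was 0.981 against 1.46 after scaling by the median tile ratio. It was lower in blocks than outside in 13 of 13 alternatives.

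The H3K27me3 ratio of 1.01 fell below 1 with repeats kept (0.972), 200 kb tiles (0.952), 50 WCE reads (0.985) and a ratio of 2 (0.971). It was 1.02 with offset tiles, 1.23 (50 kb), 1.20 (200 WCE reads), 1.08 (median scaling), 1.29 (lower threshold) and 1.09 (by strand). It was lower in blocks in 9 of 13 alternatives, the exceptions being 50 kb tiles, 200 WCE reads, the lower threshold and the choice by strand. The share of tiles with H3K27me3 above H3K4me3, 33.4%, became 39.7% (50 kb), 27.7% (200 kb), 50% (200 WCE reads), 14.8% (median scaling), 47.1% (lower threshold) and 18.4% (ratio 2).

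H3K4me3 windows per Mb in blocks, 1.35, became 2.40 (50 kb), 0.720 (200 kb), 10.3 (200 WCE reads), 4.15 (lower threshold), 0.447 (ratio 2), 2.13 with 1 kb windows and 4.59 against a uniform background, and stayed lower than outside in 14 of 14. The share in the last of 5 equal parts of a chromosome, 56.4%, became 49.3% (50 kb), 60.5% (200 kb), 51.5% (50 WCE reads), 38.2% (200 WCE reads), 42.0% (lower threshold), 78.2% (ratio 2) and 50.8% (by strand). Around long blocks, leaving out edges with blocks or shallow tiles within 300 kb moved the H3K9me3 ratio at 200 to 300 kb outside to 1.07, against 1.28 as reported, an alternative chosen after seeing the data. The cause of the other shifts was not tested. Depth limits the borders, since 10941 of 24633 autosomal tiles held too few WCE reads to be examined.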

Other observations

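Among 9585 autosomal tiles with 20 to 99 WCE reads, which were too shallow for the rule, 453 (4.73%) had an H3K9me3 ratio of 1.5 or more. This share was close to the 4.59% of the 13692 tiles examined, and counting error is larger at this depth.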
